A study of Mus musculus with 8 samples.

Results

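Acute-phase genes encode secreted or surface proteins whose blood or tissue levels change in inflammation, and 10 of them were followed here in C3H10T1/2 cells, an established mesenchymal cell line of mouse embryo origin. They were the serum amyloid A genes Saa1, Saa2 and Saa3, the binding proteins Lcn2, Hp and Orm1, the protease inhibitor Serpina3n, the metal enzymes Steap4 and Cp, and the pentraxin Ptx3. The members were taken by symbol, and all 10 were found among the 18306 genes of the deposited count table. The list was drawn up with results of this same comparison known: Saa3 and Serpina3n had been seen among its decreases, so members were in part chosen on the S1P against vehicle values reported here. The fold changes and adjusted p-values below therefore describe the members and are not independent evidence of a direction.

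In all, 8 RNA sequencing libraries were compared. The S1P group held 4 libraries, numbered 5 to 8, from cells given 5 µM sphingosine 1-phosphate (S1P, a lipid that acts through G protein-coupled receptors) for 24 h. The vehicle group held 4 libraries, numbered 1 to 4, from cells given 0.1% fatty acid-free bovine serum albumin for 24 h. The labels give albumin for the vehicle cells only and do not say whether the S1P cells received it. Cells of both groups had been without serum for 24 h before treatment, and they carry no engineered allele in the labels. The labels do not say that the libraries come from separate cultures. The p-values therefore weigh the groups against a spread between libraries that may be technical.

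In the acute-phase response, interleukin 1, tumour necrosis factor and interleukin 6 act through the transcription factors NF-kB, C/EBP and STAT3 to change the output of plasma proteins, with the liver as the main source. Some of these genes are also made outside the liver: in mice Saa3, Lcn2 and Ptx3 are known products of activated fibroblasts, adipocytes and macrophages. Many of the proteins bind something that microbes use or that injury sets free, such as iron-loaded siderophores (Lcn2) or haemoglobin (Hp).

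To show the start sites of genes with unlike responses, the 250 bases before the RefSeq transcript start (build GRCm38.p6) are given for Saa3, Lcn2, Steap4 and Ptx3. Capitals mark a C/EBP-type match, TTGCNNAA, searched on both strands. The Saa3 stretch is chr7:46715677-46715926 on the minus strand, that of Lcn2 is chr2:32387740-32387989 on the minus strand, that of Steap4 is chr5:7960222-7960471 on the plus strand and that of Ptx3 is chr3:66219637-66219886 on the plus strand.
Saa3: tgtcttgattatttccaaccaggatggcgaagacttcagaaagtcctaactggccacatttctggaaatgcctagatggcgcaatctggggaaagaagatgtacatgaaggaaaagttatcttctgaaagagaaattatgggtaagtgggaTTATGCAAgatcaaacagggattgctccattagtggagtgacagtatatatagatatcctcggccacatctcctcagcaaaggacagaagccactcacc
Lcn2: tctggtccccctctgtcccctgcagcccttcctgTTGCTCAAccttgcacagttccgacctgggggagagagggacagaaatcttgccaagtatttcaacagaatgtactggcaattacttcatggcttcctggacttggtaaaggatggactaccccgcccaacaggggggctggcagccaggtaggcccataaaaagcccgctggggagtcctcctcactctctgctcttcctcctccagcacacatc
Steap4: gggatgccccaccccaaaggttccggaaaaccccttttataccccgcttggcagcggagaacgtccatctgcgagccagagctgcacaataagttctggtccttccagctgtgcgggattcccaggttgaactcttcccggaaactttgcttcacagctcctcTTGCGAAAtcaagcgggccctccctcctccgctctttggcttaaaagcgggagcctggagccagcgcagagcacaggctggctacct
Ptx3: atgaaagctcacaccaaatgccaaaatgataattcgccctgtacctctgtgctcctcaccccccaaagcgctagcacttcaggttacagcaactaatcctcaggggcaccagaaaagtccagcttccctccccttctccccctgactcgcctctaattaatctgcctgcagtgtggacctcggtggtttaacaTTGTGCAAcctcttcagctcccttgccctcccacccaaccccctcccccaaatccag
Counting the base before the start as -1, the match lay at -99 to -92 in Saa3, -216 to -209 in Lcn2, -87 to -80 in Steap4 and -57 to -50 in Ptx3. RefSeq windows of 250 bases before and 50 after a start were found for 8 of the 10 members. These were 9 windows because Cp has 2 starts. Hp and Orm1 had no window and were not searched. The C/EBP letters were in 7 of these 9 windows, and in 10.8% of the 32544 windows of all genes. Serpina3n and the other Cp window lacked them. Saa1 and Saa2 share most of their sequence (93.9% of 609 aligned bases of their transcripts), so their windows are not separate cases. STAT-type letters, TTCNNNGAA, were in 1 of the 9 windows, that of Steap4 at -116 to -108, and in 8.3% of all windows. An NF-kB-type pattern (GGG, any 5 bases, CC) was in 7 of the 9, Saa3 not among them, and in 51.0% of all windows. Its matches overlap one another in Ptx3, Steap4 and Serpina3n, some on opposite strands. A match is a description of letters, and its part in the RNA levels was not tested.

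**Figure D1:**
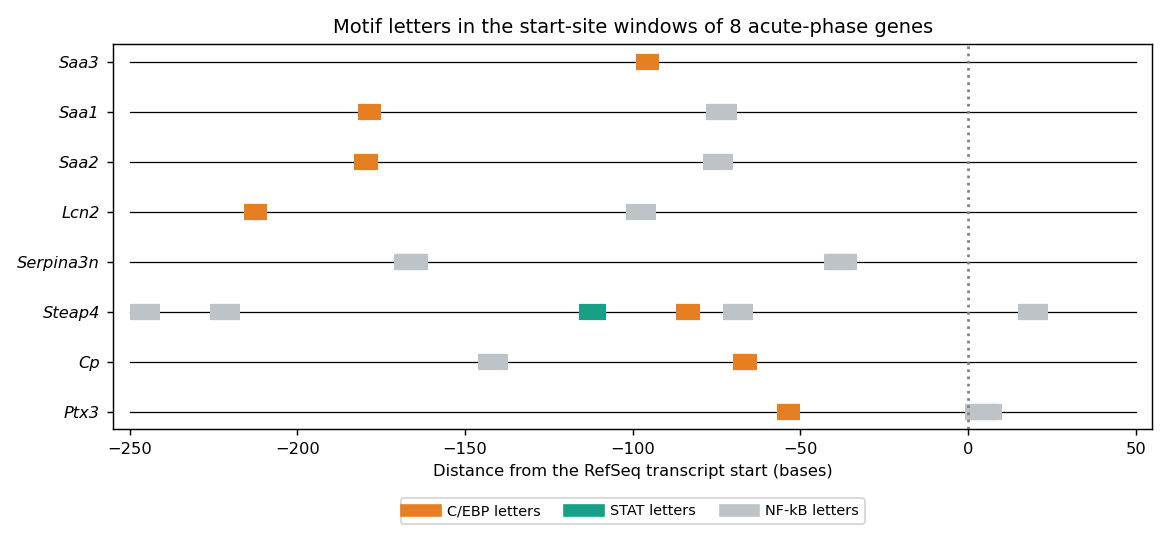
Positions of the 3 motif patterns in the RefSeq start-site windows of 8 acute-phase genes; the x axis is the distance in bases from the transcript start and each box is a match on either strand (for Cp, the window with matches). A C/EBP box is present in each gene except Serpina3n, between -216 in Lcn2 and -50 in Ptx3.

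The libraries held 13750303 to 13761544 counts each, and 11844 genes had enough counts to be tested. Vehicle replicate 4 stood apart, with 2.5% of its counts from mitochondrially encoded genes against 3.45% to 3.83% in the other 7 libraries, and without it Saa3, Serpina3n, Hp and Steap4, described next, kept their calls with log2 fold changes of -3.04, -2.58, -1.79 and -1.85. Of all tested genes 8.5% were called, 663 of them higher and 344 lower after S1P (edgeR quasi-likelihood test, p-values adjusted over all genes by Benjamini-Hochberg, threshold 0.05), and the median log2 fold change was -0.04. Levels are given as CPM, the library's counts scaled to a common total and for composition. Fewer cells making an RNA and less of it per cell cannot be told apart in such bulk libraries.

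Of the 10 acute-phase genes, 7 passed the filter on low counts and 3 (Saa1, Saa2 and Orm1) did not. After S1P, 4 of the 7 fell past the threshold (Saa3, Serpina3n, Hp and Steap4), none rose, and 3 (Lcn2, Cp and Ptx3) were not called. Over all tested genes the same rule called 2.9% lower and 5.6% higher. The 4 libraries of each group did not overlap for Saa3, Lcn2, Hp and Serpina3n, all lower after S1P, where 7.21% of all tested genes were lower without overlap. The median log2 fold change of the 7 genes was -1.66. Because the comparison was in view when the list was made, nothing about the group is read from these counts. They also depended on single S1P libraries: without S1P replicate 6, or without S1P replicate 8, none of the 7 passed, and without S1P replicate 7 there were 2 (Hp and Serpina3n). Over all tested genes, too, decreases dropped from 344 to 101 without S1P replicate 6, 151 without replicate 7 and 108 without replicate 8.

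**Figure D2:**
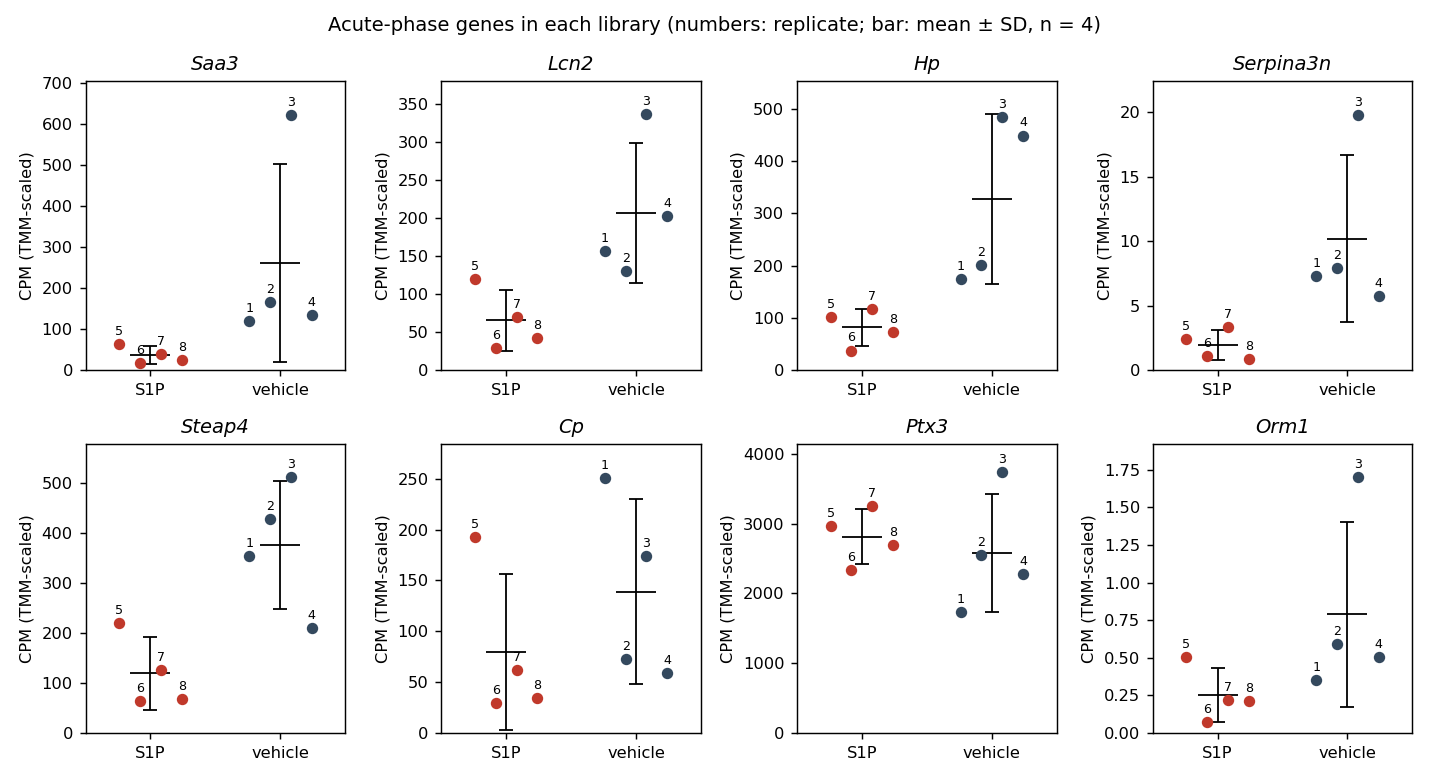
CPM of 8 acute-phase genes in each library, with S1P libraries (5 to 8) left of vehicle libraries (1 to 4); points carry the replicate number and bars are mean ± SD (n = 4). The groups do not overlap for Saa3, Lcn2, Hp and Serpina3n, while the Ptx3 libraries of both groups cover 1740 to 3740 CPM.

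Serum amyloid A proteins are small apolipoproteins of high-density lipoprotein, and Saa3 is the main family member that mice make outside the liver. Saa3 (ENSMUSG00000040026, chromosome 7, 53967168 to 53971246 in mm9) had 65.1, 16.7, 40.3 and 25.7 CPM in S1P replicates 5 to 8, against 120, 167, 623 and 134 CPM in vehicle replicates 1 to 4. Every S1P library lay below every vehicle library, and vehicle replicate 3 was far above the other vehicle libraries. The mean was 36.96 ± 21.2 CPM after S1P and 260.8 ± 242 CPM in vehicle (SD, n = 4 each), a 7.05-fold decrease (log2 fold change -2.82 ± 0.63 SE, edgeR adjusted p = 0.0246). Without vehicle replicate 3 the log2 fold change was -1.92 and the call stood (edgeR adjusted p = 0.0256). The call was lost when S1P replicate 6, 7 or 8 was left out (edgeR adjusted p = 0.0804, 0.0728 and 0.0862).

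Saa1 and Saa2, the liver-type genes of the same cluster, were close to absent. Saa1 had no count in any S1P library, where a count of 0 allows up to 3 counts, or 0.215 to 0.22 CPM, from counting error alone, and 1, 0, 5 and 0 counts in vehicle replicates 1 to 4. Saa2 had 1, 0, 0 and 0 counts in S1P replicates 5 to 8, against 6, 2, 9 and 2 counts in vehicle replicates 1 to 4. Both had their highest count in vehicle replicate 3, and neither was tested. Reads from these near-identical genes may have been split or dropped in counting, whereas Saa3 is 64.6% identical to Saa1 and 63.3% to Saa2 over their aligned transcripts. Around Saa3, the 4 tested genes within 100000 bases (Sergef, Saal1, Hps5 and Gtf2h1) had log2 fold changes of -0.18 to 0.12 and none was called.

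Lcn2, lipocalin 2, binds bacterial siderophores and so withholds iron from microbes. Lcn2 (ENSMUSG00000026822, chromosome 2, 32239953 to 32243517 in mm9) had 120, 29.8, 70.5 and 42 CPM in S1P replicates 5 to 8, against 157, 131, 337 and 203 CPM in vehicle replicates 1 to 4. All S1P libraries were below all vehicle libraries, although S1P replicate 5 came close to vehicle replicate 2. Its mean was 65.6 ± 40.1 CPM after S1P and 207 ± 92 CPM in vehicle (SD, n = 4 each), with a log2 fold change of -1.66 (SE 0.45) that just missed the threshold (edgeR adjusted p = 0.0509). It passed in 5 of 15 alternative fits, among them DESeq2 (adjusted p = 0.00116) and the fit without S1P replicate 5 (log2 fold change -2.12, edgeR adjusted p = 0.0185). Its neighbour Dnm1, 30904 bases away, had 15.56 ± 2.87 CPM after S1P and 50.91 ± 16.4 CPM in vehicle (log2 fold change -1.71, edgeR adjusted p = 0.00409). Besides the 10 members themselves, 25 tested genes lay within 100000 bases of any of them, and only Dnm1 was called.

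Haptoglobin, the product of Hp, captures free haemoglobin for clearance. Hp (ENSMUSG00000031722, chromosome 8, 112098830 to 112103272 in mm9) had 102, 37.7, 118 and 72.3 CPM in S1P replicates 5 to 8, against 174, 201, 485 and 449 CPM in vehicle replicates 1 to 4. The groups did not overlap, and here vehicle replicates 3 and 4 were both high. The mean was 82.62 ± 35.5 CPM after S1P and 327.2 ± 162 CPM in vehicle (SD, n = 4 each), a 3.96-fold decrease (log2 fold change -1.99 ± 0.43 SE, edgeR adjusted p = 0.0224). Without vehicle replicate 4 the log2 fold change was -1.79 with the call kept (edgeR adjusted p = 0.0397). Hp lost its call without S1P replicate 6 (edgeR adjusted p = 0.0566) and without replicate 8 (0.0796).

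Orm1, the alpha-1-acid glycoprotein that carries drugs and lipids in plasma, was at the edge of detection (ENSMUSG00000039196, chromosome 4, 63005394 to 63009397 in mm9). It had 7, 1, 3 and 3 counts in S1P replicates 5 to 8, against 5, 8, 23 and 7 counts in vehicle replicates 1 to 4. The groups overlapped, the count in vehicle replicate 3 was again the highest, and the gene was not tested.

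Serpina3n is a mouse serpin that inhibits serine proteases such as granzyme B. Serpina3n (ENSMUSG00000021091, chromosome 12, 105644739 to 105652739 in mm9) had 2.45, 1.09, 3.38 and 0.861 CPM in S1P replicates 5 to 8, against 7.31, 7.93, 19.8 and 5.73 CPM in vehicle replicates 1 to 4. The groups did not overlap, and vehicle replicate 3 stood well above the other vehicle libraries. Its level was low in both groups, at 1.945 ± 1.18 CPM after S1P and 10.2 ± 6.48 CPM in vehicle (SD, n = 4 each), a 5.23-fold decrease (log2 fold change -2.39 ± 0.53 SE, edgeR adjusted p = 0.0246). Without vehicle replicate 3 the log2 fold change was -1.84 (edgeR adjusted p = 0.0451), and without S1P replicate 6 or 8 the call was lost (0.0859 and 0.0735). The Serpina3 genes form a cluster of close copies, so reads shared among them may have been split in counting.

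Steap4 is a membrane metalloreductase that reduces iron and copper before uptake. Steap4 (ENSMUSG00000012428, chromosome 5, 7960272 to 7982413 in mm9) had 221, 64.3, 126 and 67.8 CPM in S1P replicates 5 to 8, against 354, 428, 513 and 211 CPM in vehicle replicates 1 to 4. S1P replicate 5 lay above vehicle replicate 4, so the groups overlapped by that pair. The mean was 119.8 ± 73.2 CPM after S1P and 376.3 ± 128 CPM in vehicle (SD, n = 4 each), a 3.14-fold decrease (log2 fold change -1.65 ± 0.42 SE, edgeR adjusted p = 0.0423). Leaving out vehicle replicate 4 or S1P replicate 5 kept this call, and leaving out any other library lost it (edgeR adjusted p of at most 0.117 in the other fits).

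Cp, ceruloplasmin, is a copper-carrying ferroxidase that oxidises iron as it leaves cells. Cp (ENSMUSG00000003617, chromosome 3, 19856854 to 19909345 in mm9) had 193, 29.7, 61.6 and 34.7 CPM in S1P replicates 5 to 8, against 251, 72.4, 174 and 58.6 CPM in vehicle replicates 1 to 4. One library of each group, S1P replicate 5 and vehicle replicate 1, was far above most of the others, and the groups overlapped. With 79.81 ± 76.9 CPM after S1P and 139.1 ± 90.8 CPM in vehicle (SD, n = 4 each), the log2 fold change was -0.80 (SE 0.66, edgeR adjusted p = 0.472). Leaving out S1P replicate 5 gave -1.73 and leaving out vehicle replicate 1 gave -0.37, neither of them called (edgeR adjusted p = 0.0928 and 0.757). The Cp span shares 13601 bases with Hps3 on the opposite strand, which had 32.29 ± 2.96 CPM after S1P and 36.31 ± 8.09 CPM in vehicle.

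Ptx3, the long pentraxin, is a soluble pattern recognition protein that binds microbes and complement C1q and helps to build hyaluronan-rich matrix. Ptx3 (ENSMUSG00000027832, chromosome 3, 66023609 to 66029928 in mm9) had 2970, 2340, 3260 and 2690 CPM in S1P replicates 5 to 8, against 1740, 2550, 3740 and 2280 CPM in vehicle replicates 1 to 4. The S1P libraries all lay inside the vehicle range. The mean was 2817 ± 394 CPM after S1P and 2579 ± 844 CPM in vehicle (SD, n = 4 each), with a log2 fold change of 0.13 (SE 0.23, edgeR adjusted p = 0.748). That the gene did not pass does not show equal levels: leaving out a library moved the log2 fold change between -0.04 (without vehicle replicate 1) and 0.36 (without vehicle replicate 3). The Ptx3 span lies within that of Veph1 on the opposite strand, which had 12.98 ± 1.93 CPM after S1P and 8.255 ± 1.03 CPM in vehicle, far below Ptx3.

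**Figure D3:**
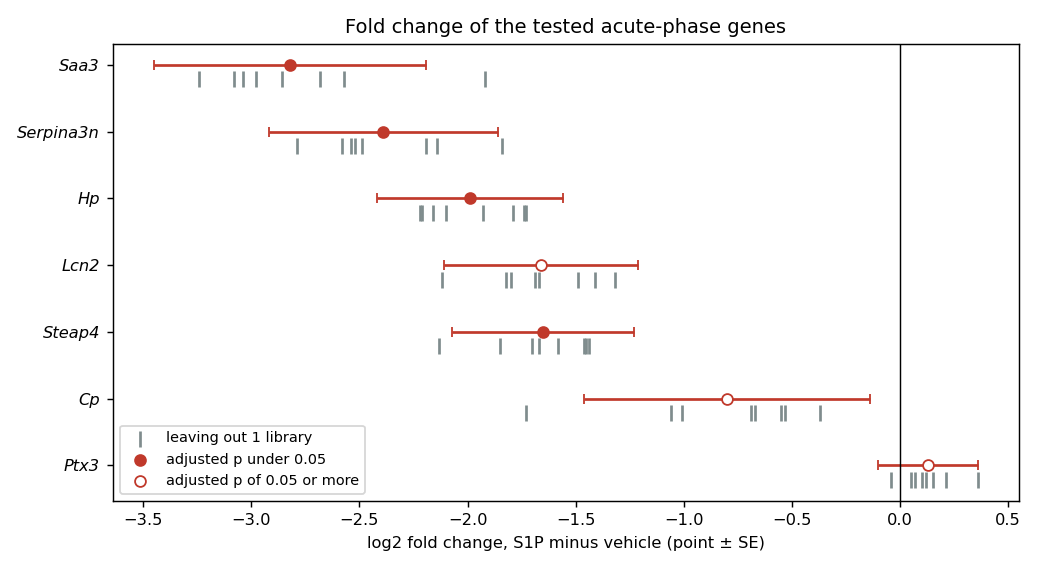
Log2 fold change of the 7 tested acute-phase genes, S1P minus vehicle, from the fit over all genes (point ± SE; filled where the adjusted p is under 0.05), with a grey tick for each of the 8 fits without a library. The ticks of Saa3 reach from -3.24 to -1.92, and those of Ptx3 lie on both sides of 0.

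Per length of all exons joined (GENCODE M21), Ptx3 RNA was the most abundant of the 10 in both groups, with a level of 872 to 1220 CPM per kb in S1P libraries and 649 to 1390 CPM per kb in vehicle libraries. On that scale the vehicle levels of Hp (mean 204 CPM per kb), Steap4 (119), Saa3 (100) and Lcn2 (78.9) came next, and their ranges overlapped one another. Cp was below them at 6.13 to 26.2 CPM per kb in vehicle, overlapping Serpina3n at 2.78 to 9.59, and Orm1 lay lower at 0.458 to 2.19. After S1P the order was Ptx3, Hp (mean 51.4 CPM per kb), Steap4 (38), Lcn2 (25), Saa3 (14.2), Cp (8.34), Serpina3n (0.942) and Orm1 (0.327), and the ranges of neighbours from Hp to Cp overlapped. The order of the middle genes depends on the length used: with the 555 bases of the lowest-numbered Saa3 transcript in place of 2606 bases of joined exons, the vehicle mean of Saa3 was 470 CPM per kb, above Hp at 243 on its lowest-numbered transcript. In CPM, Ptx3 made up 80.8% to 92.9% of the summed acute-phase counts in S1P libraries and 62.1% to 71.7% in vehicle libraries. The other 9 genes summed to 179.4 to 704.8 CPM in S1P libraries and 1007 to 2155 CPM in vehicle libraries.

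Most of the acute-phase genes varied widely inside each group, and their highest and lowest libraries were often the same. How often other genes share this order of libraries was not measured. Vehicle replicate 3 was the highest vehicle library for 6 of the 7 tested genes, with Cp as the exception, and S1P replicate 6 was the lowest S1P library for 6 of the 7, with Serpina3n as the exception. S1P replicate 5 was the highest S1P library for Saa3, Lcn2, Steap4 and Cp, and S1P replicate 7 for Hp, Ptx3 and Serpina3n. Highest and lowest vehicle libraries differed 5.2-fold for Saa3, a wider range than for 97.4% of the 10988 genes with a mean of at least 2 CPM, and 4.29-fold for Cp (95.8%). The vehicle range was narrower for Ptx3, at 2.15-fold (76.8%), and for Steap4, Lcn2 and Hp, at 2.43-fold to 2.78-fold (82.9% to 87.6%). Among S1P libraries the range was 3.9-fold for Saa3 (98.5%), 4.03-fold for Lcn2 (98.6%) and 6.51-fold for Cp (99.4%), but 1.39-fold for Ptx3 (68.2%).

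After the group means had been taken out, Pearson's r between 2 acute-phase genes over the 8 libraries was 0.14 to 0.88 in the 21 pairs, with a median of 0.73. This is a description: the libraries are shared by all pairs, and vehicle replicate 3 weighs on most of them. The r between pairs of genes outside the list was not worked out, so these values are not shown to be particular to the members. Saa3 went most closely with Ptx3 (r = 0.88), Lcn2 (0.87) and Serpina3n (0.87), and the weakest pair was Ptx3 with Cp (0.14). Among the 7 acute-phase genes, Ptx3 thus had the highest r with Saa3, although its groups overlapped. By the same measure, the 10988 genes with a mean of at least 2 CPM, members left out, were ranked by their r with Saa3. The highest r among so many genes over 8 libraries is large in part through the picking itself. The top 8 were Gcnt2 (r = 0.982), Mx1 (0.980), Cxcl10 (0.970), Rapgef2 (0.968), Susd1 (0.967), Cybb (0.961), Loxl2 (0.960) and Fam162a (0.958). Of these, Loxl2, a lysyl oxidase, fell to 5.416 ± 2.52 CPM after S1P, against 25.36 ± 12.7 CPM in vehicle (edgeR adjusted p = 0.0108), and the remaining 7 were not called.

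**Figure D4:**
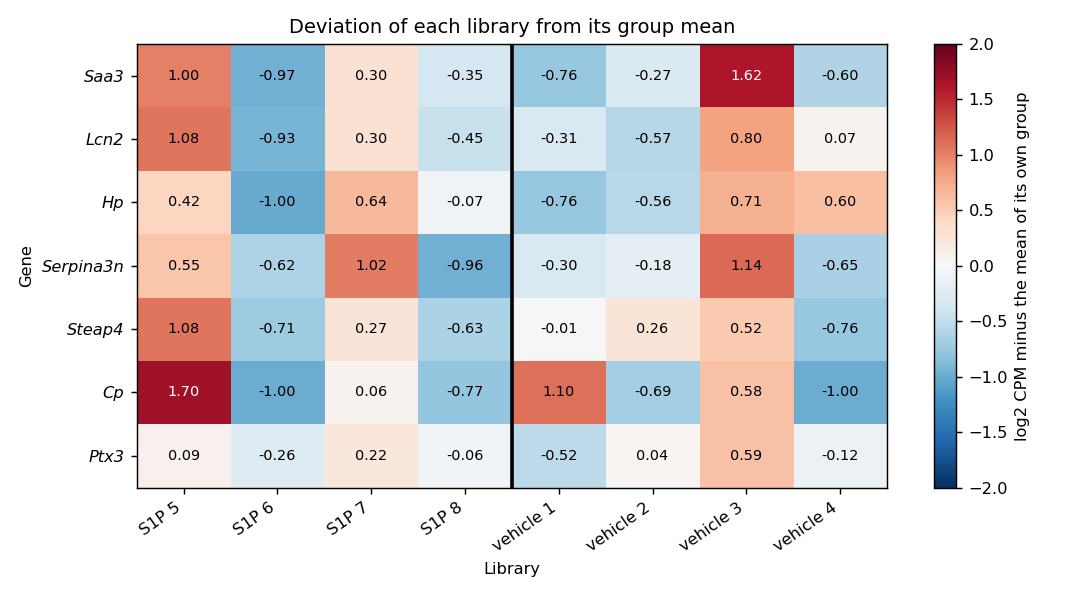
Log2 CPM of each tested acute-phase gene minus the mean of its own group, by library, with S1P libraries left of the black line and vehicle libraries right of it. Vehicle 3 is positive in every row, from 0.52 for Steap4 to 1.62 for Saa3, and S1P 6 is negative in every row.

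Other plasma proteins of the acute-phase response, in a list of 32 of which 24 were found and 12 tested, were mostly lower too. The lists of related genes, this and those below, were also written with earlier results of these data known. Their counts therefore describe the lists and are not independent evidence of a direction. In the list of other plasma proteins 5 fell, against the 2.9% of all genes named above, and the median log2 fold change was -1.49. C3, the central complement component, was the most abundant, with 1230, 599, 1580 and 1290 CPM in S1P replicates 5 to 8, against 2840, 3510, 6170 and 6170 CPM in vehicle replicates 1 to 4. The C3 groups did not overlap (log2 fold change -1.99 ± 0.35 SE, edgeR adjusted p = 0.00929). Lbp, which hands lipopolysaccharide to Cd14, had 87.5, 32.6, 74.6 and 47.2 CPM in S1P replicates 5 to 8, against 156, 206, 439 and 234 CPM in vehicle replicates 1 to 4, again without overlap (log2 fold change -2.10 ± 0.39 SE, edgeR adjusted p = 0.011). Both kept their calls in all 8 leave-one-out fits, each made without 1 library. The complement genes Cfb (log2 fold change -2.50) and C4b (-2.28) fell as well, as did Serping1, the C1 inhibitor, named after its value was seen (-1.87), but each lost its call in 5 or 6 of those 8 fits (edgeR adjusted p of at most 0.128, 0.11 and 0.0937). The Cfb span shares 6507 bases with C2 on the same strand.

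Of these other plasma proteins DESeq2 called 8 of the 12 lower, where it called 6.79% of all genes lower and 8.16% higher. In place of 5 decreases there were 2 when vehicle replicate 3 or any of S1P replicates 6 to 8 was left out, and 3 when vehicle replicate 2 was.

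Close relatives of the members gave 2 decreases and no increase among 9 tested genes, beside 2.9% lower and 5.6% higher over all genes, with a median log2 fold change of -0.62. Apod, like Lcn2 a lipocalin, had 96.7, 40, 54.7 and 60.2 CPM in S1P replicates 5 to 8, against 286, 155, 214 and 181 CPM in vehicle replicates 1 to 4 (log2 fold change -1.73 ± 0.28 SE, edgeR adjusted p = 0.00697). Steap3, the relative of Steap4 that reduces iron in endosomes, had 57.3, 41.9, 41 and 42.7 CPM in S1P libraries, against 110, 79.1, 76.1 and 96.4 CPM in vehicle libraries (log2 fold change -0.98 ± 0.16 SE, edgeR adjusted p = 0.00699). Neither gene's groups overlapped, and both calls held in all 8 leave-one-out fits. Serpina3g, the most abundant Serpina3 gene tested, was not called, at 345.1 ± 103 CPM after S1P and 456.4 ± 168 CPM in vehicle (edgeR adjusted p = 0.41).

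Cytokines that induce the response, and their receptors, gave 4 decreases and 1 increase among 18 tested genes, with a median log2 fold change of -0.43. Over all genes 2.9% were lower and 5.6% higher, so the share of increases was at the background. The decreases, all in receptors, were small: Il6ra, the interleukin 6 receptor (log2 fold change -0.76), the pattern receptor Tlr2 (-0.75), Il11ra1 (-0.69) and Il17ra (-0.53). Each of these 4 lost its call in 4 to 6 of the 8 leave-one-out fits, and none was called without S1P replicate 6, 7 or 8. The Il11ra1 span shares 8773 bases with Dctn3 on the opposite strand. Il1rn, the secreted antagonist of the interleukin 1 receptor, had 958, 762, 1200 and 1330 CPM in S1P replicates 5 to 8, against 370, 510, 698 and 664 CPM in vehicle replicates 1 to 4, higher without overlap (log2 fold change 0.93 ± 0.24 SE, edgeR adjusted p = 0.0432). That call was lost in 5 of the 8 leave-one-out fits and with RLE size factors, another composition scaling (edgeR adjusted p of at most 0.127). Il6st, the shared signalling chain, was not called at 1040 ± 73 CPM after S1P and 1386 ± 222 CPM in vehicle (edgeR adjusted p = 0.103). Il6, named after its value was seen, was not called at 129.9 ± 48.1 CPM after S1P and 276.2 ± 155 CPM in vehicle. Its groups overlapped (log2 fold change -1.09, edgeR adjusted p = 0.159). Tnf, Il1a and Il11 had too few counts to be tested, and Il1b and Osm were absent from the deposited table.

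Transcription factors and feedback genes of the response, all 22 tested, had a median log2 fold change of -0.41, with 20 of the 22 negative. Over all tested genes 53.9% were negative. None was called lower by edgeR, and 9 were lower at an unadjusted p under 0.05 (11.7% of all genes were). DESeq2 called 4 lower, and 6.79% of all genes. Stat3, the transcription factor downstream of interleukin 6, had 270.2 ± 29.6 CPM after S1P and 368.9 ± 54.3 CPM in vehicle (SD, n = 4 each; edgeR adjusted p = 0.0729), and Hif1a had 391.8 ± 73.5 CPM after S1P and 480 ± 177 CPM in vehicle (adjusted p = 0.499). Fkbp5, a chaperone known as a glucocorticoid target, was the 1 of 22 that rose (5.6% of all genes did), with 20.9, 30.7, 28 and 22.5 CPM in S1P replicates 5 to 8, against 7.74, 12.9, 13.8 and 13 CPM in vehicle replicates 1 to 4 (log2 fold change 1.11 ± 0.21 SE, edgeR adjusted p = 0.0131). Without S1P replicate 6 it missed the threshold (edgeR adjusted p = 0.0548).

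Receptors and partners of the proteins gave 2 decreases and no increase among 7 tested genes, beside the same 2.9% and 5.6% over all genes. Besides Tlr2, this was Mmp9, a gelatinase that Lcn2 protein binds, with 1.15, 1.67, 2.57 and 3.09 CPM in S1P replicates 5 to 8, against 9.37, 16.4, 23.2 and 25.6 CPM in vehicle replicates 1 to 4 (log2 fold change -3.13 ± 0.40 SE, edgeR adjusted p = 0.00321). Lrp1, a scavenger receptor and the most abundant of the list, was not called at 1207 ± 212 CPM after S1P and 2418 ± 1270 CPM in vehicle (edgeR adjusted p = 0.0883). Iron and copper genes gave 2 decreases and no increase among 17 tested genes (2.9% lower and 5.6% higher over all genes), with a median log2 fold change of -0.36: Steap3 and the iron transporter Slc11a2 (log2 fold change -0.54 ± 0.14 SE, edgeR adjusted p = 0.0456). The Slc11a2 call was lost in 6 of the 8 leave-one-out fits (edgeR adjusted p of at most 0.152). The ferritin genes Fth1 and Ftl1 were not called, Fth1 at 1534 ± 572 CPM after S1P and 2726 ± 694 CPM in vehicle and Ftl1 at 404.2 ± 155 CPM after S1P and 570.8 ± 320 CPM in vehicle (edgeR adjusted p = 0.0927 and 0.462).

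**Figure D5:**
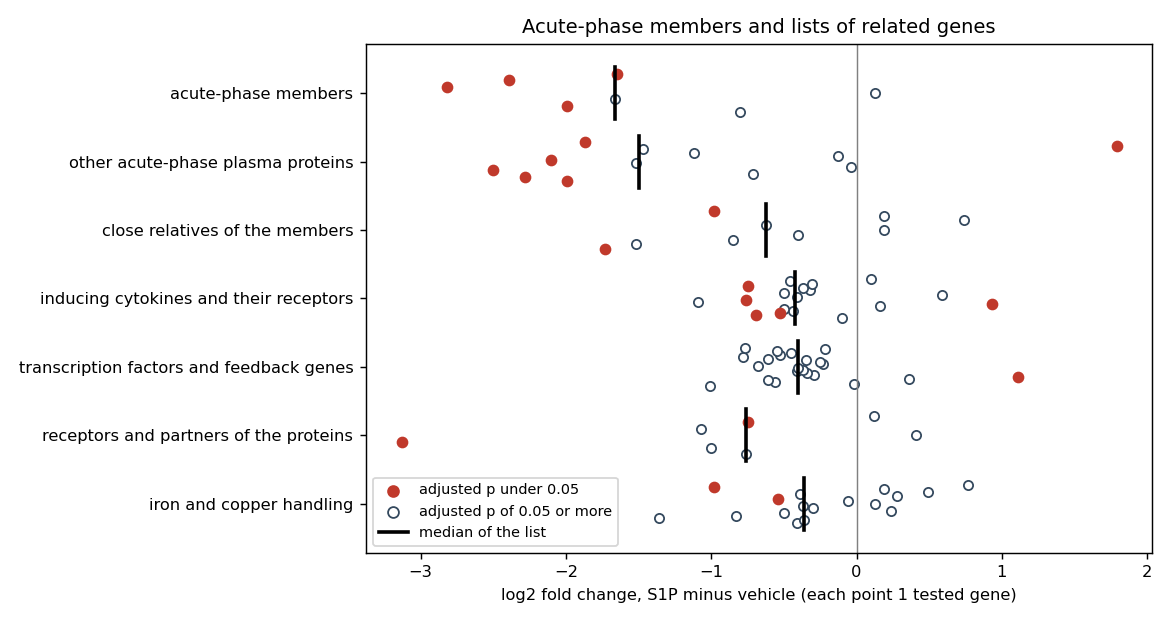
Log2 fold change, S1P minus vehicle, of each tested gene in the acute-phase group and in the 6 lists of related genes; filled points have an adjusted p under 0.05 and the black bar is the median of the list. Medians lie between -1.66 for the acute-phase members and -0.36 for iron and copper handling.

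Markers of the cell line and of other sources of acute-phase RNA were read beside these values. Of 10 mesenchymal markers, 9 were tested and none was called, and their sum was 13700 to 18400 CPM in S1P libraries and 16900 to 24400 CPM in vehicle libraries. Of the 9 log2 fold changes 7 were negative, where 53.9% were over all tested genes. The most abundant were Col1a2, at 5451 ± 1030 CPM after S1P and 5314 ± 1280 CPM in vehicle, and Col3a1, at 3558 ± 901 CPM after S1P and 5676 ± 275 CPM in vehicle (SD, n = 4 each). Col3a1 was lower after S1P without overlap (log2 fold change -0.67, edgeR adjusted p = 0.0571). Pdgfra, named after its value was seen, had 761.3 ± 284 CPM after S1P and 1570 ± 563 CPM in vehicle (log2 fold change -1.04, edgeR adjusted p = 0.0853). S100a4, also named after its value was seen, went the other way. It had 1383 ± 268 CPM after S1P and 962.1 ± 238 CPM in vehicle (log2 fold change 0.52, edgeR adjusted p = 0.145). The 4 hepatocyte markers found (Alb, Apoa1, Apob and Fgb, of 8 listed) summed to at most 0.218 CPM in any S1P library and 0.0741 CPM in any vehicle library, with no gene above 2 counts. The 6 macrophage markers found summed to 1.6 to 5.41 CPM in S1P libraries and 2.59 to 6.46 CPM in vehicle libraries, and Ptprc, which marks all white blood cells, had at most 2 counts in an S1P library and 0 in every vehicle library. Of 8 adipocyte markers 3 were found, with sums of 16.8 to 39.3 CPM in S1P libraries and 24.8 to 44.3 CPM in vehicle libraries. Adipoq had at most 4 counts in a library. Fabp4 (log2 fold change 1.37, edgeR adjusted p = 0.197) and Pparg (-0.71, edgeR adjusted p = 0.114) went opposite ways, and neither was called. The 2 epithelial markers found summed to 1.47 to 2.18 CPM in S1P libraries and 1.11 to 2.83 CPM in vehicle libraries. The 5 endothelial markers, nearly all Tek, summed to 17.4 to 44 CPM in S1P libraries and 36.4 to 76.8 CPM in vehicle libraries, with Kdr at no more than 1 count in a library. The part of these in the acute-phase differences was not tested.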

How the data were processed

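RNA sequencing of 4 S1P and 4 vehicle libraries of C3H10T1/2 cells was analysed from 1 table. The authors deposited whole-number counts per Ensembl gene with symbols and mm9 positions, printed here as the table gives them. STAR 2.5.3a and build mm9 are named per the submitters' processing notes. The counts are called sense in the deposited table. Their counter and annotation were not given in the sources used here. All 8 totals nearly match, so original depth is unknown.

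Columns were matched to samples by title. Genes were kept with filterByExpr (minimum count 10) of edgeR 4.0.16 in R 4.3.3, scaled by TMM, and tested over all genes with the robust quasi-likelihood test, treatment as the only term, and Benjamini-Hochberg adjustment at 0.05. The SE comes from the F statistic. Folds are S1P over vehicle on the log2 scale, and a fold decrease is its inverse. Deviations used log2(CPM + 0.5). The fit was tested on simulated data. Members and lists were chosen with earlier results of these data known. All members were named. Of each related list, up to 4 called genes with the largest change and the 2 most abundant were named, with others marked; a called gene of the other plasma proteins is not reported here. Alternatives were RLE or no composition factors, other filters, DESeq2 1.42.0, limma-voom (limma 3.58.1), 1 surrogate variable (sva 3.50.0) and leaving out each library. Symbols come from the deposited table, and 17497 of 18306 identifiers had an exon length in GENCODE M21. The limit given for a count of 0 covers counting error only, whereas SDs and SEs also hold the spread between libraries.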

Additional observations from a re-analysis of the deposited data

Results flagged for a closer look

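In 5 of 60 groups of 4 libraries, 1 library lay far from the other 3 by Dixon's criterion, which chance meets in about 1 of 20 groups. Saa3 stood at 623 CPM in vehicle replicate 3, with vehicle replicates 1, 2 and 4 at 120 to 167 CPM. Serpina3n stood at 19.8 CPM in vehicle replicate 3, with 5.73 to 7.93 CPM in the others of its group. Cfb stood at 16.8 CPM in that library too, with 2.83 to 4.37 CPM in the others. Steap3 stood at 57.3 CPM in S1P replicate 5, with 41 to 42.7 CPM in the other S1P libraries. Fkbp5 stood at 7.74 CPM in vehicle replicate 1, with 12.9 to 13.8 CPM in the other vehicle libraries. The 3 values of vehicle replicate 3 come from 1 library and are not separate events.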

How the results depend on the processing

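Of 335 alternative values for 30 single genes, 259 kept their direction and side of the threshold, 64 lost and 11 gained a call, and 1 reversed: Ptx3, uncalled, at -0.04 without vehicle replicate 1 (up to 0.36 without vehicle replicate 3). The causes were not tested. The 4 acute-phase decreases were 3 without a filter and 5 with RLE factors, DESeq2, limma-voom or a surrogate variable, and none rose in any fit. Leaving out a library gave 0 to 5 of them, 434 to 1856 changed genes in all, 333 to 1133 higher and 101 to 723 lower. DESeq2 called 1771 genes (967 higher, 804 lower) and the surrogate variable fit 2465 (1459 higher, 1006 lower). Among related lists, DESeq2 called 8 other plasma proteins, 4 transcription factors and 5 iron and copper genes lower and 1 iron and copper gene higher. With RLE factors, 0 inducing cytokine or receptor genes were higher and 1 transcription factor was lower. Leaving out a library gave 2 to 5 other plasma proteins lower, 0 to 7 cytokine and receptor genes lower and 0 to 2 higher, 0 to 2 transcription factors lower and 0 to 2 higher, 1 to 2 receptors and partners lower and 0 to 1 higher, and 1 to 4 iron and copper genes lower and 0 to 1 higher. No paired analysis was possible because the groups share no replicate number. Depth limits Saa1, Saa2 and Orm1, which had too few counts to be tested.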
